A study of Mus musculus with 9 samples.

Results

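The genes described here are the heat shock proteins and the DnaJ cochaperones. They were picked by symbol alone: Hsp90, Hspa, Hspb, Hspd, Hspe or Hsph, or Dnaja, Dnajb or Dnajc, followed by a number. Where a gene had several probe sets, the one with the highest mean log2 signal over all 9 arrays was used. This gave 70 genes, with 169 probe sets between them, of 18193 genes named on the array. Of these, 44 were DnaJ genes, 13 Hsp70 genes, 8 small heat shock protein genes, 2 Hsp90 genes, 2 genes of the mitochondrial Hsp60/Hsp10 chaperonin and 1 an Hsp110 gene. The classes follow the symbols, so the Hsp110-like Hspa4 and its relative Hspa4l are counted with the Hsp70 genes throughout. A filter on low signal (mean log2 signal at or above the median of all probe sets, a geometric mean of 116) passed 61 of the 70.

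Heat shock proteins are molecular chaperones: they bind unfolded or misfolded proteins and hold, refold or hand them on for degradation. Hsp70 works in cycles of ATP binding and hydrolysis, in which a DnaJ protein delivers the client and starts hydrolysis through its J domain, and an Hsp110 protein or another exchange factor releases the nucleotide. Hsp90 takes clients from Hsp70, small heat shock proteins hold unfolded proteins without ATP, and Hsp60 with its lid Hsp10 folds proteins inside mitochondria. Some members are always made, and others are switched on by heat or oxidants through heat shock factor 1, which binds inverted GAA repeats (heat shock elements) in their promoters.

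The samples were cultures of lung type II cells, the surfactant-making epithelium of the alveoli. Per the labels they came from female ICR10 mice aged 2 months and were kept for 5 days with keratinocyte growth factor on a fibronectin and collagen coat, after steps to remove macrophages and fibroblasts. The wild type was Nrf2+/+, and the other mice were Nrf2-/- and so lacked the transcription factor Nrf2, which drives antioxidant and detoxifying genes. The third group was Nrf2-/- cells labelled with GSH, which commonly stands for glutathione. The labels state neither dose nor time for it, and their treatment field reads no treatment on all 9 arrays. Each group had 3 arrays (Affymetrix mouse genome arrays): wild type replicates 3, 4 and 5, and replicates 2, 3 and 4 of knockout and of knockout with GSH. A number in the sample titles puts the last array of each group in another set (set 3) than the first pair (set 2), and values below are given in that order. No source says what the set is. Whether a group's arrays hold separate mice or cultures is not stated, so p-values measure only the spread between arrays, which may be technical.

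Nfe2l2, which encodes Nrf2, gave signals of 3879, 3889.8 and 4173 in wild type, 73.6, 77.4 and 28.7 in knockout and 45.3, 46.2 and 33.3 in knockout with GSH. Sex-linked genes went against the labels, which call all mice female: Xist averaged 157 in wild type against 3203 and 3510.0 in the knockout groups, and the Y-linked Eif2s3y 801 against 9.27 and 7.43. This difference runs with genotype in both comparisons with wild type and cannot be told apart from it. Sftpc, the surfactant protein that defines type II cells, lay above the control level (the 95th percentile of 27 control probe sets on the same array) on 0 of 3 wild-type arrays (44.6, 25.5 and 41.7). It lay above that level on all knockout arrays (67.3, 145 and 55.1) and all knockout arrays with GSH (132, 118 and 73.8). Of 12 type II markers 9 passed the filter and lay above the control level on all wild-type arrays, among them Sftpb (338 ± 101, SD, n = 3) and Abca3 (914 ± 104). Sftpa1 (62.2 ± 22.6) and Nkx2-1 (62.4 ± 23.2) failed the filter as Sftpc did, and each lay above that level on 2 of 3 wild-type arrays. Fibroblast and mesenchymal markers had a summed signal of 60968 to 64663 in wild type, 77533 to 104482 in knockout and 16803 to 20742 with GSH. Macrophage markers summed to 44030 to 45469, 83767 to 94191 and 111336 to 129233 in the same order. The part of these cells in the results below was not tested, and in cultures of mixed cells fewer cells of a type and less RNA per cell cannot be told apart.

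The promoters of the heat shock protein genes that were higher in knockout and hold a heat shock element are shown first, to show where the motif lies in genes that were higher together. Each is the 250 bases before the start of the gene, 5′ to 3′ on the gene's strand, from RefSeq for GRCm38.p6. Capitals mark matches to GAANNTTC or TTCNNGAA, searched on both strands. Hsph1 lies at chr5:149636337-149636586 (minus strand), Hspa1a at chr17:34972157-34972406 (minus), Hspa1b at chr17:34959239-34959488 (minus) and Hspe1 at chr1:55087898-55088147 (plus).
Hsph1: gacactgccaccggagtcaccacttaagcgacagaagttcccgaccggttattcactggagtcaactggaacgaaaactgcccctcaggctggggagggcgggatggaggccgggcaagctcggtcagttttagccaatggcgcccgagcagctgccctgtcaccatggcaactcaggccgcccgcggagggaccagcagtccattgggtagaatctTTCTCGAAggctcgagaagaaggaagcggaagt
Hspa1a: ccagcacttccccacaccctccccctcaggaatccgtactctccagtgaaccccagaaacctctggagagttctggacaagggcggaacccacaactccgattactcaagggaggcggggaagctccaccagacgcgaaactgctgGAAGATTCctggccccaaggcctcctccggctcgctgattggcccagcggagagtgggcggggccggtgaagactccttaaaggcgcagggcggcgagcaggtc
Hspa1b: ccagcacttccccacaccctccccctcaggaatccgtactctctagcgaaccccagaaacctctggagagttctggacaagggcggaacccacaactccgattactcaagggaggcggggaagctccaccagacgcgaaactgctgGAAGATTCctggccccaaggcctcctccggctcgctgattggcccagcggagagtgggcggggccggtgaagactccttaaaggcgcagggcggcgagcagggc
Hspe1: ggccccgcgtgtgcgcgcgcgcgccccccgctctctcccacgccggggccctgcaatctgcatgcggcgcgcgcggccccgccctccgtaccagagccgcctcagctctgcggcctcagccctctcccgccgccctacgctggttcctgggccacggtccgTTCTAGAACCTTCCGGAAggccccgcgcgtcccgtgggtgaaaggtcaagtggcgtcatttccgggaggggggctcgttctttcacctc

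The match in Hsph1 begins 33 bases before the start, and the single match in Hspa1a and in Hspa1b begins 104 bases before it. Hspe1 has 3 overlapping matches that begin 79 to 89 bases before the start, in the region from which the neighbouring Hspd1 is read in the other direction. The windows of Hspa1a and Hspa1b differ at 3 of 250 bases. These neighbouring genes encode nearly the same protein, so how their probe sets split the signal is uncertain. The shares that follow were counted over the 250 bases before each start that RefSeq gives a gene (74 windows for 57 members, of which 15 have more than 1), and a gene counted if any of its windows held a match. A match was found in 14 of the 57 members with a sequence (24.6%), against 3932 of 27025 genes (14.5%). By class, it was in 8 of 21 heat shock protein genes (38.1%) and 6 of 36 DnaJ genes (16.7%). Of the 10 members called higher and the 10 called lower in knockout, 9 and 8 had a sequence. Those without a sequence, and so not searched, were Hsp90aa1 (higher) and Dnajc5 and Hspa9 (lower). The match was in 4 of the 9 higher (44.4%) and 4 of the 8 lower (50%, Dnaja4, Dnajb4, Dnajc10 and Hspd1). The 3 matches of Hspe1, counted as higher, lie in the shared region and are also those of Hspd1, counted as lower. The near-identical windows of Hspa1a and Hspa1b are both counted as higher. These counts are thus not independent, and whether the motif separates the directions was not tested. A match was in 5 of 33 members tested and not called in knockout (15.2%), and these shares are a description with no test. The antioxidant response element that Nrf2 binds (TGACNNNGC, both strands) was in 8 of 57 members (14.0%) and in 11.5% of all genes. Hsph1 was the one member with a match to both motifs that was called higher in knockout. A match describes the letters and is not a measured binding site.

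Knockout cultures had higher Hsph1, Hspa1a, Hspa1b and Hspe1 and lower Dnaja4, Hspb8, Dnajb4 and Hspa9 than wild type, all by less than 2-fold. With GSH, knockout cultures had lower signals for 5 of the 6 small heat shock protein genes tested. The largest fall was that of Hspb2, at 198 ± 21.1 against 740.3 ± 111 (3.72-fold), and Hspb1 was not called. Dnajc5, Dnajb14 and Dnaja4, lower in knockout, were higher with GSH. Signals are given per array, or as mean ± SD over the 3 arrays of a group, in arbitrary units. Changes are log2 differences from limma with their standard error (SE), and a gene was called at a Benjamini-Hochberg adjusted p under 0.05 over all 22519 probe sets tested.

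Between knockout and wild type, 20 of 61 members were called (32.8%), 10 higher and 10 lower, where 29.1% of all probe sets were called, 14.6% in each direction. Between knockout with GSH and knockout, 22 members were called (36.1%), 7 higher and 15 lower, against 35.4% of all probe sets, 18.4% higher and 17% lower. Between knockout with GSH and wild type it was 30 (49.2%), 10 higher and 20 lower, against 44.7%, 22.5% higher and 22.3% lower. With 1 probe set per gene the background was 32.4%, 39.5% and 48%, so the members were called about as often as other genes. Their median log2 change was 0.01, -0.01 and -0.05 in this order, and that of all probe sets 0.00, 0.04 and 0.02. The groups did not overlap in 24, 22 and 34 members, or 39.3%, 36.1% and 55.7%, against 30.2%, 33.6% and 43.4% of all probe sets. With 1 probe set per gene that background was 34.6%, 38.5% and 47.9%, above the share of the members in the middle comparison. All the members called in a comparison had the same direction in set 2 and in set 3. The calls were made from these same arrays, and set 3 has 1 array per group, so this agreement is not independent of the calls. The comparisons share arrays, so their counts are not independent. Quantile normalisation turned the 10 higher and 10 lower in knockout into 8 and 14, and the 10 and 20 of knockout with GSH against wild type into 7 and 22. Without wild type replicate 4 the 20 calls became 13, and without knockout with GSH replicate 4 the 22 calls became 14. The knockout arrays with and without GSH carry the same replicate numbers, but whether these mark pairs is not known. With the number as a block 13 of the 22 calls were left.

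**Figure D1:**
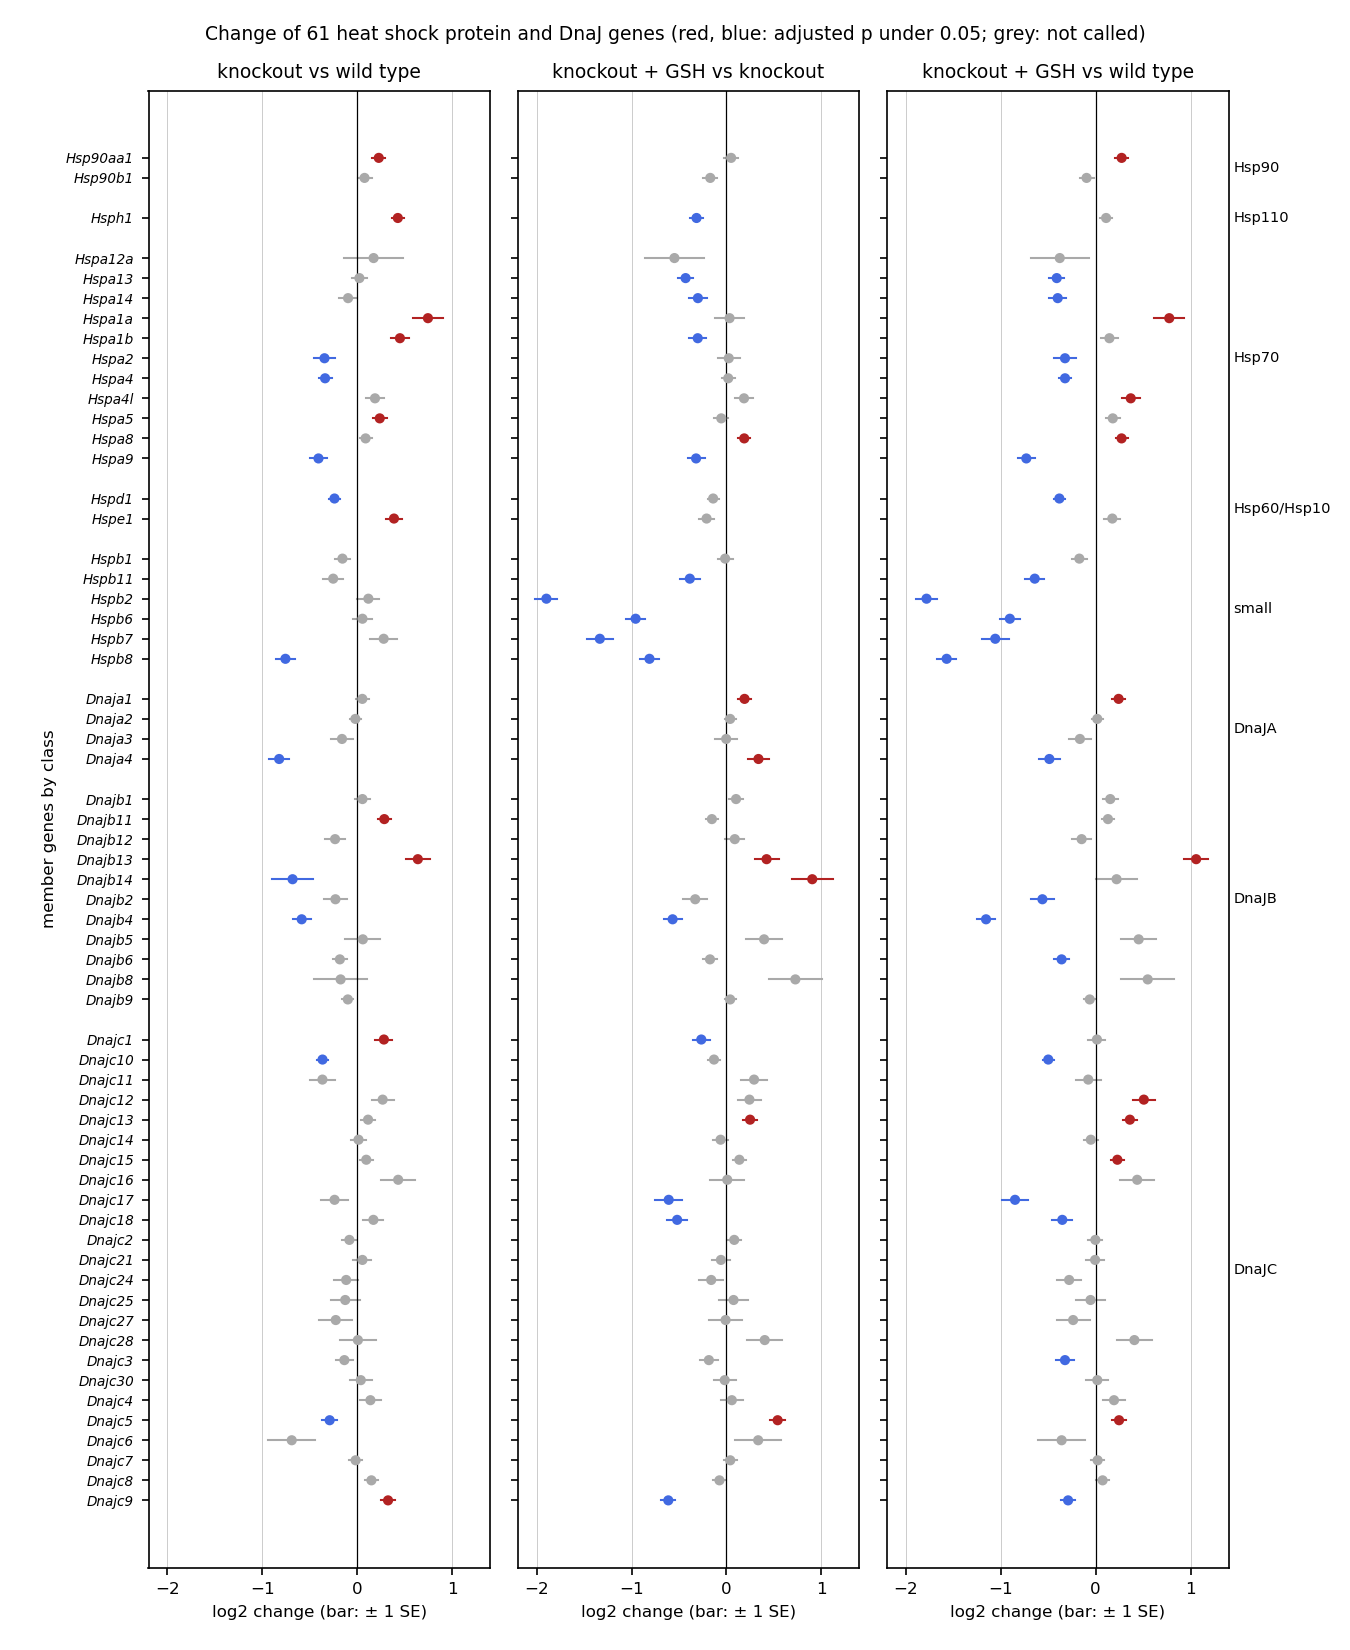
Log2 change of each of the 61 members in the 3 comparisons, grouped by class, with bars of 1 SE (red and blue points passed the limma threshold, grey points did not). The small heat shock proteins Hspb2, Hspb7, Hspb6 and Hspb8 lie far to the left in both comparisons with GSH, while Hsp70 and DnaJ genes lie on both sides of 0.

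The Hsp90 class held the cytosolic Hsp90aa1 and the endoplasmic reticulum (ER) form Hsp90b1. Hsp90aa1, the stress-inducible form, gave 10643, 10409.7 and 10796 in wild type, 11375, 13321 and 12614 in knockout and 12896, 12015 and 13659 with GSH. All wild-type arrays lay below all others. The change was 0.23 ± 0.07 in knockout (SE, limma adjusted p = 0.032) and 0.27 ± 0.07 between knockout with GSH and wild type (adjusted p = 0.0076). The call in knockout was lost under quantile normalisation (adjusted p = 0.18), as was that with GSH against wild type (0.089). It was also lost without any of wild type replicates 3, 4 and 5 and knockout replicates 3 and 4 (adjusted p up to 0.11). Hsp90b1 averaged 10447 ± 1769, 10984 ± 1556 and 9818 ± 1984 and was not called in any comparison, the lowest adjusted p being 0.095. A further Hsp90b1 probe set was called higher in knockout (0.24, adjusted p = 0.031).

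Hsph1, the Hsp110 that exchanges nucleotide on Hsp70, had the smallest p among the heat shock proteins called higher in knockout. Its signals were 3123, 3278 and 3022 in wild type, 4116, 4366 and 4176 in knockout and 3643, 3246 and 3293 with GSH. The knockout arrays lay above all 6 others, and the wild-type and GSH groups overlapped. The log2 change was 0.43 ± 0.06 in knockout (limma adjusted p = 0.00047) and -0.32 ± 0.06 with GSH against knockout (adjusted p = 0.0025). A dimmer Hsph1 probe set changed by 0.20 (adjusted p = 0.16) and -0.19 (adjusted p = 0.15).

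Of 11 Hsp70 genes that passed the filter, 3 rose and 3 fell in knockout, with a median of 0.09, and 1 rose and 4 fell with GSH against knockout. These are 54.5% and 45.5% of the class, against 29.1% and 35.4% of all probe sets, and 32.4% and 39.5% with 1 probe set per gene. The risers were the stress-inducible pair and the ER form. Hspa1a gave 209, 249 and 243 in wild type, 392, 298 and 508 in knockout and 367, 399.6 and 434 with GSH, so that wild type lay below both knockout groups. It rose by 0.74 ± 0.16 in knockout (1.67-fold, limma adjusted p = 0.0044) and did not differ between the knockout groups beyond the spread (0.03 ± 0.16, adjusted p = 0.90). Hspa1b, its near-identical neighbour, gave 1357, 1331 and 1986, then 1927, 1669.6 and 2831, then 1701, 1394 and 2047. In each group the set 3 array was the highest, so the groups overlapped, while within set 2 both knockout arrays lay above both wild-type arrays. Hspa1b rose by 0.45 ± 0.09 in knockout (adjusted p = 0.0038, and 0.26 without the set in the model) and fell by 0.30 with GSH (adjusted p = 0.024, and 0.16 with the replicate block). That fall was not called without knockout replicate 2 or 4 or knockout with GSH replicate 3 or 4 (adjusted p up to 0.13). All 3 Hspa1b probe sets were called higher in knockout and lower with GSH against knockout. With GSH against wild type the probe sets differed. The one used was not called (0.15, limma adjusted p = 0.23), and the second brightest was lower (-0.29, adjusted p = 0.0060).

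Hspa5, the ER chaperone BiP, gave 13369.5, 12585 and 11276 in wild type, 14033, 15604 and 14146 in knockout and 13257, 15015 and 13885 with GSH. The knockout arrays lay above wild type by 0.24 ± 0.07 (limma adjusted p = 0.032). This call rested on the probe set and the scaling: the other Hspa5 probe sets changed by -0.05 (adjusted p = 0.54) and -0.24 (adjusted p = 0.049). It was not called under quantile normalisation (adjusted p = 0.68) or without wild type replicate 4 or 5 or knockout replicate 3 or 4 (up to 0.16). Hspa8, the constitutive cytosolic Hsp70 of all cells, gave 16372, 16693 and 14905, then 18472, 17319.7 and 15248, then 21173, 18931 and 17953. It was called higher with GSH against knockout (0.19 ± 0.06, adjusted p = 0.039, and 0.13 with the replicate block) and against wild type (0.27 ± 0.06, adjusted p = 0.0044). The first call ended when any of 7 single arrays was left out (wild type 3, 4 and 5, knockout 3 and 4, knockout with GSH 2 and 4, adjusted p up to 0.16). Under quantile normalisation the second was -0.00057 (adjusted p = 0.99), and Hspa8 was called lower in knockout (-0.20, adjusted p = 0.022), against 0.09 (adjusted p = 0.35) as deposited. None of the 3 dimmer Hspa8 probe sets was called in a comparison with GSH, the lowest adjusted p being 0.083.

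Hspa9, the mitochondrial Hsp70 (mortalin), fell in steps. Its signals were 6517, 7192 and 7529 in wild type, 5718, 4566 and 5767 in knockout and 3914, 3874 and 5102 with GSH. Wild type lay above both other groups, which overlapped. The change was -0.41 ± 0.09 in knockout (limma adjusted p = 0.0054), -0.32 ± 0.09 with GSH against knockout (adjusted p = 0.016) and -0.73 ± 0.09 with GSH against wild type (adjusted p = 4.5e-05). The middle step was not called without knockout replicate 2 or knockout with GSH replicate 2 or 3 (adjusted p up to 0.059). A further Hspa9 probe set fell by 0.74 in knockout (adjusted p = 0.0028) and changed by -0.07 between the knockout groups (adjusted p = 0.75). With the mean of all Hspa9 probe sets neither step was called (-0.45 and -0.23, adjusted p = 0.11 and 0.39).

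Hspa4, an Hsp110-like exchange factor, stood at 5159.9 ± 257, 4083 ± 344 and 4126 ± 95.5, and all wild-type arrays lay above the rest (-0.34 ± 0.07 in knockout, limma adjusted p = 0.0031). Its dimmer probe sets disagreed in knockout, at -0.51 (adjusted p = 0.021) and 0.19 (adjusted p = 0.52), and their mean with the one used was not called (-0.031, adjusted p = 0.88). Its relative Hspa4l went the other way, at 721 ± 54.5, 819 ± 37.2 and 932 ± 67.8, and was called between knockout with GSH and wild type (0.37 ± 0.09, adjusted p = 0.0072). Hspa2, an Hsp70 known for its role in sperm formation, was lower in both knockout groups (465 ± 32.1 against 366 ± 25.1 and 372 ± 17.4, adjusted p = 0.042 and 0.040). Each of these calls was near the threshold. That in knockout was lost without any of wild type 3, 4 and 5, knockout 2, 3 and 4 and knockout with GSH 3 (adjusted p up to 0.17). That with GSH was lost without any of wild type 3 and 4 and knockout with GSH 2, 3 and 4 (up to 0.16).

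Hspa13, a microsomal Hsp70, and Hspa14, an Hsp70 bound to ribosomes, were called lower with GSH but not in knockout against wild type (limma adjusted p = 0.87 and 0.47). Whether these changes differ from each other was not tested. Hspa13 gave 1360.0, 1394 and 1987 in wild type, 1469.9, 1493 and 1795 in knockout and 1108, 1111 and 1306 with GSH. Every GSH array lay below all others (-0.43 ± 0.08 against knockout, limma adjusted p = 0.0010). Hspa14 averaged 1107 ± 69.6, 1037 ± 105 and 839 ± 40.0, and fell by 0.30 against knockout (adjusted p = 0.023, and 0.073 with the replicate block). This fall was not called without knockout replicate 3 or knockout with GSH replicate 2 or 3 (adjusted p up to 0.082). A dimmer Hspa14 probe set instead fell in knockout (-0.57, adjusted p = 0.022) and changed by 0.05 with GSH (adjusted p = 0.84). Hspa12a, a distant relative, was dim and variable (161 ± 21.1, 192 ± 75.3 and 138 ± 85.0) and was not called.

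The components of the mitochondrial chaperonin moved in opposite directions in knockout. Hspd1, which encodes Hsp60, gave 12662, 12708 and 11248 in wild type, 10048, 10800.5 and 10105 in knockout and 9607, 9588 and 8887 with GSH. The groups did not overlap in any comparison. Hspd1 fell by 0.24 ± 0.06 in knockout (limma adjusted p = 0.0092, and 0.054 without wild type replicate 4) and was lower by -0.38 ± 0.06 with GSH against wild type (adjusted p = 0.00024). Hspe1, which encodes Hsp10, gave 7001, 7179 and 7201, then 8581, 10277 and 9154, then 8976, 7922 and 7342. All knockout arrays lay above wild type (0.39 ± 0.08, adjusted p = 0.0048), and a further Hspe1 probe set rose too (0.50, adjusted p = 0.0097). With GSH the change against knockout was -0.21 ± 0.08 (adjusted p = 0.070). These genes are neighbours that share the promoter region printed above, and the difference between their changes was not tested.

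**Figure D2:**
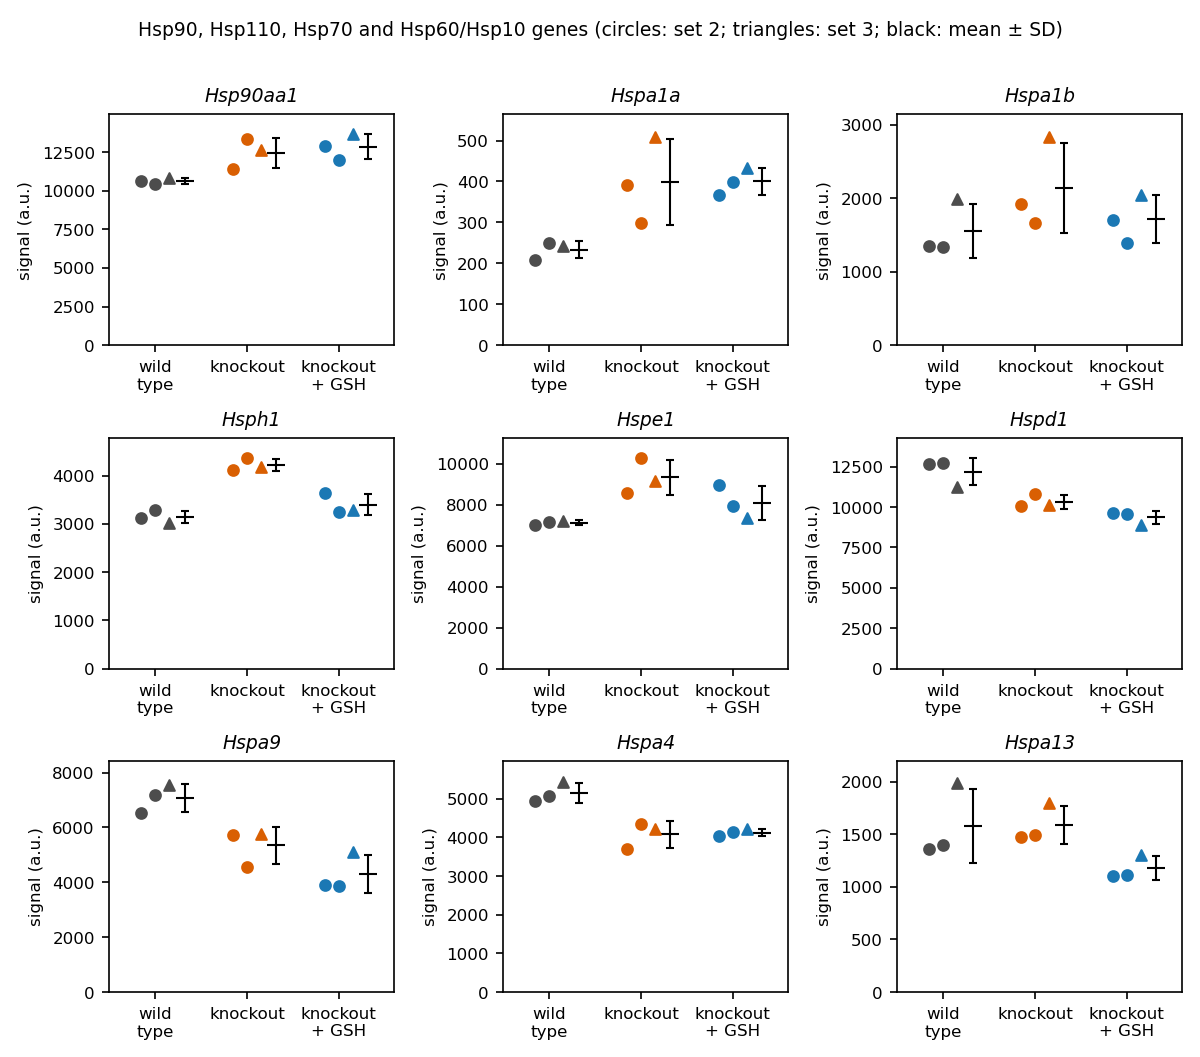
Signal (arbitrary units, linear axis from 0) of 9 Hsp90, Hsp110, Hsp70 and Hsp60/Hsp10 genes on every array, by group (circles set 2, triangles set 3, black mean ± SD). Hsph1 is highest in knockout, Hspe1 and Hspa1a are higher in knockout than in wild type, and Hspd1, Hspa9 and Hspa4 are lower.

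Small heat shock proteins were the class with the largest changes, and these lay in the comparisons with GSH. Of the 6 that passed the filter, 5 fell with GSH against knockout and the same number against wild type, with medians of -0.88 and -0.98. All 6 changes were below 0 in both comparisons, the smallest being -0.01 and -0.17 (Hspb1). The background for calls in that direction was 17% and 22.3% of all probe sets, and 19.8% and 24.5% with 1 probe set per gene. In knockout against wild type 1 of the 6 was called. Hspb2, Hspb6 and Hspb7 are found mainly in heart, skeletal and smooth muscle. Hspb2 gave 844, 741 and 498 in wild type, 805, 804 and 612 in knockout and 213, 207 and 174 with GSH. No GSH array came near the others, and knockout overlapped with wild type (0.12 ± 0.12, limma adjusted p = 0.50). The change with GSH was -1.90 ± 0.12 against knockout (adjusted p = 2.1e-07).

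Hspb7 gave 348, 330.5 and 297 in wild type, 446, 462 and 296 in knockout and 182, 166 and 126 with GSH. It fell by 1.33 ± 0.14 against knockout (2.52-fold, limma adjusted p = 1.8e-05), and a dimmer probe set fell by 1.32 (adjusted p = 0.0012). Hspb6, also called Hsp20, gave 656, 632 and 621, then 720.2, 636 and 628, then 326, 328 and 368. It fell 1.94-fold (-0.96 ± 0.10, adjusted p = 2.3e-05). For both genes the GSH arrays lay below all others, and knockout and wild type overlapped.

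Hspb8, which acts with the cochaperone Bag3 in the removal of damaged proteins, was the one small heat shock protein called lower in knockout. Its signals were 2747, 3069 and 3346 in wild type, 2005, 1548 and 1879.9 in knockout and 1075, 913 and 1101 with GSH. The groups formed 3 separate steps. The change was -0.76 ± 0.10 in knockout (limma adjusted p = 0.00020), -0.81 ± 0.10 with GSH against knockout (adjusted p = 7.4e-05) and -1.57 ± 0.10 with GSH against wild type (2.97-fold, adjusted p = 2.3e-07). A further Hspb8 probe set gave -0.77, -0.70 and -1.47.

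Hspb1 (Hsp25 in mice), the most widely made of the class, was not called. It gave 10998, 11103 and 9796 in wild type, 9274, 10380.5 and 8962 in knockout and 10984, 9686 and 7876 with GSH, and the groups overlapped. The change was -0.16 ± 0.08 in knockout (limma adjusted p = 0.16) and -0.01 ± 0.08 with GSH against knockout (adjusted p = 0.91). Another Hspb1 probe set was called lower in knockout (-0.29, adjusted p = 0.039). Hspb11, named with the family but known as a subunit of the transport machinery of cilia, stood at 701 ± 74.2, 591 ± 109 and 448 ± 14.8. It fell with GSH by 0.39 ± 0.10 against knockout (adjusted p = 0.012, 0.059 with the replicate block, 0.077 without knockout replicate 4 and 0.068 without knockout with GSH replicate 4).

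Markers of other cell types moved in the same comparison. All 13 fibroblast and mesenchymal markers were lower with GSH than in knockout, with a median of -2.54. Of 12 smooth and striated muscle markers 9 passed the filter, of which 6 were lower and 1 higher (median -0.51). Their summed signal was 41853 to 46436 in wild type, 37501 to 50282 in knockout and 35276 to 40288 with GSH, and the heart myosin Myh6 lay at or below the control level on all 9 arrays. In knockout against wild type 8 fibroblast markers were higher and 2 lower (median 0.44), while Hspb8 was lower. All 5 mesothelial markers (the lining of the lung surface) were lower in knockout than in wild type (median -1.87). With GSH against knockout 4 of them were lower and Msln was higher (median -2.10). Their summed signal was 12734 to 14126 in wild type, 3946 to 4226 in knockout and 7493 to 8299 with GSH. The part of these cells in the small heat shock protein signals was not tested.

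**Figure D3:**
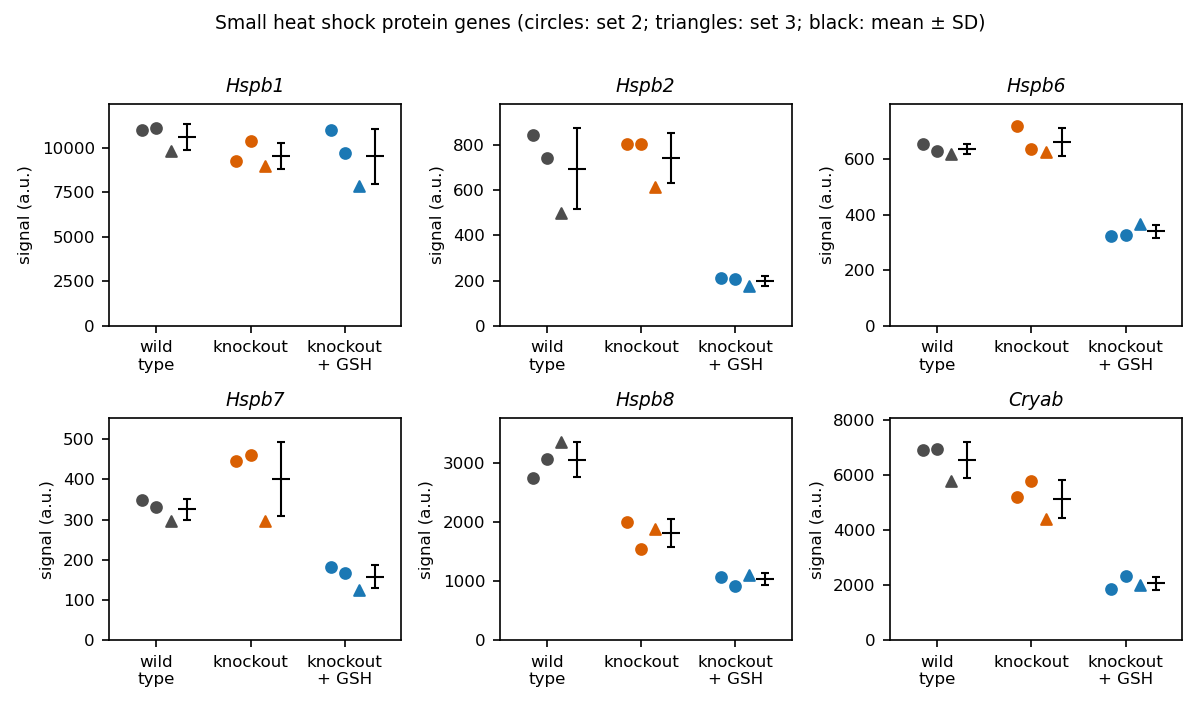
Signal (arbitrary units, linear axis from 0) of 5 small heat shock protein members and of the related lens crystallin gene Cryab on every array, by group (circles set 2, triangles set 3, black mean ± SD). In Hspb2, Hspb6, Hspb7, Hspb8 and Cryab all GSH arrays lie below all others, while Hspb1 overlaps in all groups.

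Among the 39 DnaJ genes that passed, 4 rose and 5 fell in knockout, 6 rose and 5 fell with GSH against knockout, and 6 rose and 9 fell with GSH against wild type. Their medians were -0.02, 0.04 and 0.00. By type, 1 of 4 DnaJA, 4 of 11 DnaJB and 4 of 24 DnaJC genes were called in knockout. These shares (23.1%, 28.2% and 38.5% of DnaJ genes) lay below the background given above for all probe sets in each comparison.

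Dnajc5, Dnajb14 and Dnaja4 were lower in knockout and higher with GSH. Dnajc5, the cysteine string protein of secretory vesicles, gave 2547, 2776 and 2829.5 in wild type, 2268, 2382 and 2019 in knockout and 3291, 3468 and 2930.1 with GSH. No groups overlapped, with knockout lowest and GSH highest. It fell by 0.29 ± 0.08 in knockout (limma adjusted p = 0.016) and rose by 0.54 ± 0.08 with GSH (adjusted p = 0.00023). All 5 Dnajc5 probe sets were called in both these directions. The fall in knockout was not called without wild type replicate 4 or 5 or knockout replicate 4 (adjusted p up to 0.094).

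Dnajb14, a membrane-bound DnaJ of the ER, gave 225, 281 and 230.2 in wild type, 186, 109 and 174 in knockout and 299, 301 and 256 with GSH. Knockout lay below both other groups, which overlapped. It rose by 0.90 ± 0.21 with GSH (limma adjusted p = 0.0063), and the fall in knockout (-0.68 ± 0.21, adjusted p = 0.033) was lost without any of wild type replicates 3, 4 and 5 or knockout replicate 3 (up to 0.13). A further Dnajb14 probe set fell by 0.67 and rose by 0.90. Dnaja4, a cytosolic partner of Hsp70, gave 764, 768 and 718, then 441, 415 and 416, then 473, 538 and 602. It fell 1.77-fold in knockout (-0.82 ± 0.11, adjusted p = 0.00017), the largest of the 20 changes called there on the log2 scale. The rise with GSH of 0.34 ± 0.11 (adjusted p = 0.030, and 0.092 with the replicate block) was lost without knockout replicate 3 or 4 or knockout with GSH replicate 3 or 4 (up to 0.16). The dimmer Dnaja4 probe sets changed by 0.22 (adjusted p = 0.38) and -0.04 (adjusted p = 0.92) with GSH.

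Dnajb4, a cytosolic relative of the main Hsp40, fell in both steps, as Hspa9 and Hspb8 did. It gave 1707, 1815 and 1827 in wild type, 1206, 1064 and 1303 in knockout and 739, 887 and 783 with GSH, with no overlap. The changes were -0.59 ± 0.09 (limma adjusted p = 0.00072), -0.57 ± 0.09 (adjusted p = 0.00060) and, with GSH against wild type, -1.15 ± 0.09 (2.23-fold, adjusted p = 1.6e-06). Its dimmer probe sets changed by -0.86 (adjusted p = 0.0033) and 0.54 (adjusted p = 0.086) in knockout, and by -0.39 (adjusted p = 0.10) and -0.26 (adjusted p = 0.40) with GSH against knockout. With the mean of all its probe sets the change in knockout was -0.30 and was not called (adjusted p = 0.11). Dnajb13 rose in both steps. It is a protein of the axoneme of cilia and sperm tails and gave 215, 188 and 194, then 300.1, 335 and 293, then 415, 426 and 401. Its change was 0.64 ± 0.13 in knockout (adjusted p = 0.0030), 0.42 ± 0.13 with GSH against knockout (adjusted p = 0.022, and 0.071 with the replicate block) and 1.06 ± 0.13 with GSH against wild type (adjusted p = 3.7e-05). The middle call was lost without knockout replicate 2 or 4 or knockout with GSH replicate 3 or 4 (up to 0.076). Of 7 ciliated cell markers 2 passed the filter, Foxj1 and Tubb4b, and neither was called in knockout (-0.78 and -0.14, adjusted p = 0.070 and 0.25). With GSH against knockout Foxj1 was called higher (0.87, adjusted p = 0.040) and Tubb4b was not (0.08, adjusted p = 0.49). Ccdc39 and Ccdc113 lay at or below the control level on all 9 arrays. The summed ciliated signal was 7292 to 7582 in wild type, 6065 to 7235 in knockout and 6461 to 7735 with GSH, and its part in the Dnajb13 signal was not tested.

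Dnajc9, a DnaJ that handles histones, rose in knockout and fell with GSH to below wild type. It gave 1220.3, 1187 and 1398 in wild type, 1626, 1503 and 1622 in knockout and 1020.2, 957 and 1135 with GSH, with no overlap. The changes were 0.32 ± 0.07 (limma adjusted p = 0.0068) and -0.61 ± 0.07 (adjusted p = 5.2e-05). Dnajc1, an ER membrane DnaJ, had the same directions at 858 ± 25.7, 1044 ± 94.2 and 869 ± 90.3 (adjusted p = 0.037 and 0.039, the latter 0.12 with the replicate block). Its calls were lost when single arrays were left out. In knockout this held for wild type replicates 3 and 4 and knockout replicates 2 and 3 (adjusted p up to 0.15), and with GSH for wild type replicate 4, knockout replicates 2 and 3 and knockout with GSH replicates 2 and 4 (up to 0.12). None of the dimmer Dnajc1 probe sets was called in either step (0.11 and -0.23 in knockout, 0.01 and -0.30 with GSH).

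Dnajc17 and Dnajc18 were called lower with GSH only. Dnajc17 gave 956, 702 and 1077 in wild type, 586, 693 and 1079 in knockout and 449.6, 489 and 563 with GSH, and fell by 0.61 ± 0.14 against knockout (limma adjusted p = 0.0054). Dnajc18 stood at 581 ± 7.31, 656 ± 77.9 and 456 ± 10.6 and fell by 0.52 ± 0.10 (adjusted p = 0.0024). In both, every GSH array lay below all others. The dimmer Dnajc18 probe sets were not called, at -0.25 (adjusted p = 0.27) and 0.03 (adjusted p = 0.93), nor was the mean of all its probe sets (-0.24, adjusted p = 0.23). Whether these changes differ from those in knockout against wild type was not tested. Dnajc13, which acts on endosomes, rose with GSH from 2072 ± 57.8 to 2465 ± 194 (0.25 ± 0.07, adjusted p = 0.016, 0.071 with the replicate block, and up to 0.073 without knockout with GSH replicate 3 or 4). Dnaja1, a farnesylated partner of Hsp70, averaged 6438 ± 712, 6718 ± 1219.7 and 7671 ± 1418. Its call with GSH was at the threshold (0.19 ± 0.07, adjusted p = 0.049, and 0.18 with the replicate block). It was lost without any of 7 arrays (wild type 3 and 4, knockout 2, 3 and 4, knockout with GSH 3 and 4, up to 0.17), and the dimmer Dnaja1 probe sets were not called (0.03 and -0.06).

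Dnajc10, an ER DnaJ that reduces disulfide bonds, gave 3725, 3850.4 and 4304 in wild type, 3115, 2885 and 3202 in knockout and 2635, 2723 and 3052 with GSH. Wild type lay above all others (-0.37 ± 0.06 in knockout, limma adjusted p = 0.00086), and both further Dnajc10 probe sets fell in knockout (-0.50 and -0.69). Dnajb11, the soluble ER partner of BiP, rose from 2104 ± 103 to 2560.3 ± 85.5 in knockout (0.28 ± 0.07, adjusted p = 0.0074) and stood at 2302 ± 81.7 with GSH. Of 8 members assigned to the ER, 3 rose (Dnajb11, Dnajc1 and Hspa5) and 1 fell (Dnajc10) in knockout. With GSH against knockout 0 of these rose and 2 fell (Dnajc1 and Hspa13). The assignment left out Dnajb14, which fell in knockout and rose with GSH, so these counts do not cover all ER members. Of 7 mitochondrial members, 1 rose and 2 fell in knockout, and 0 rose and 1 fell (Hspa9) with GSH. Of all probe sets 14.6% were called in each direction in knockout, and 18.4% higher and 17% lower with GSH. With 1 probe set per gene it was 16.7% higher and 15.7% lower in knockout, and 19.7% and 19.8% with GSH.

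The remaining named DnaJ genes were called between knockout with GSH and wild type. Dnajb2, which binds ubiquitinated proteins, stood at 523 ± 29.8, 448 ± 56.5 and 355 ± 30.4 (-0.56 ± 0.12 against wild type, limma adjusted p = 0.0032). Dnajc12 stood at 542 ± 195, 642 ± 181 and 756 ± 190.3, with the set 3 array highest in every group, and rose by 0.51 ± 0.12 (adjusted p = 0.0042, and 0.23 without the set in the model). Dnajb1, the main DnaJ induced by heat, was singled out after its values were seen. It averaged 2157 ± 442, 2236 ± 443 and 2381 ± 326 and was not called (adjusted p = 0.65, 0.34 and 0.13).

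**Figure D4:**
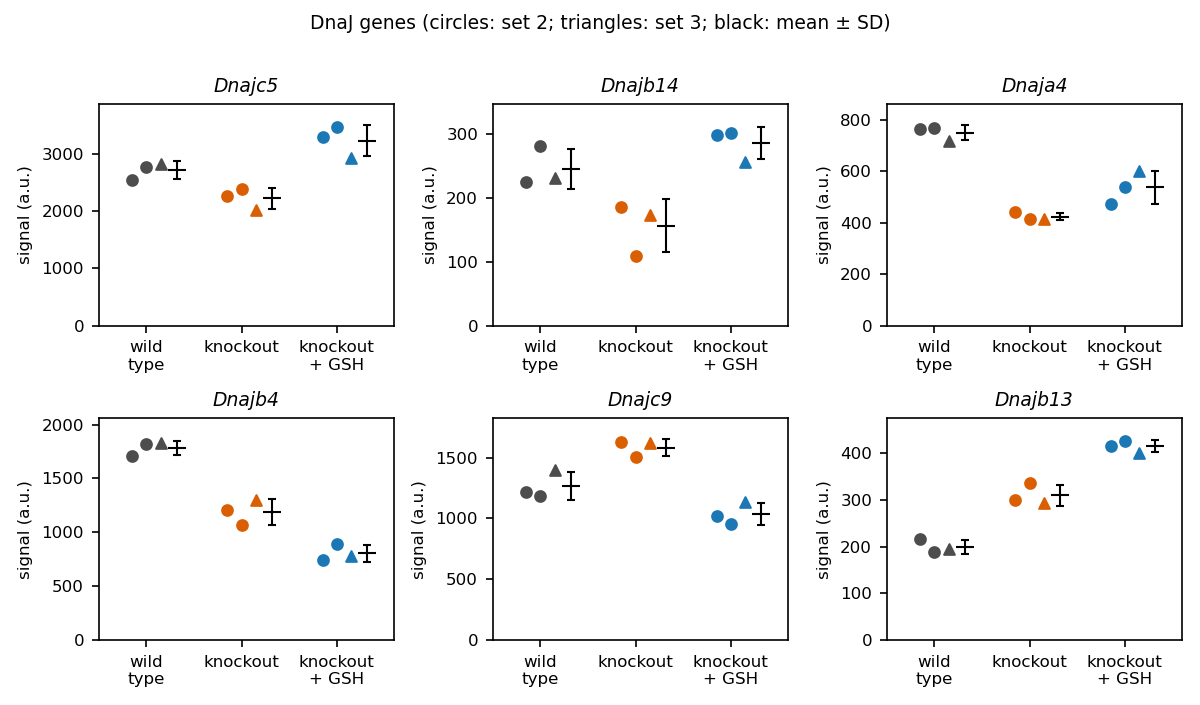
Signal (arbitrary units, linear axis from 0) of 6 DnaJ genes on every array, by group (circles set 2, triangles set 3, black mean ± SD). Dnajc5, Dnajb14 and Dnaja4 are lowest in knockout, Dnajc9 is highest there, Dnajb4 steps down and Dnajb13 steps up from wild type through knockout to knockout with GSH.

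In 39 genes at least 2 probe sets passed the filter (111 in all). At least 2 were called in the same direction in 11 of these genes in knockout, 8 with GSH against knockout and 12 with GSH against wild type. With the second brightest probe set of each gene in place of the brightest, 22, 13 and 27 members were called, against 20, 22 and 30. Probe sets of 1 gene were called in opposite directions for Dnajb6 and Hspa5 in knockout and for Dnaja1 and Dnajb6 with GSH against wild type. Dnajb6, which keeps aggregation-prone proteins in solution, is the widest case. The probe set used averaged 6291 ± 838, 5515 ± 434 and 4880.0 ± 46.4 and fell with GSH against wild type (-0.36 ± 0.08, limma adjusted p = 0.0026). A dimmer probe set went from 428 in wild type to 1799 in knockout, a rise of 2.08, and stood at 2231 with GSH (adjusted p = 1.8e-08 for the rise). Another one fell by 0.44 in knockout (adjusted p = 0.0026). Which transcript each of these probe sets reads was not analysed here.

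**Figure D5:**
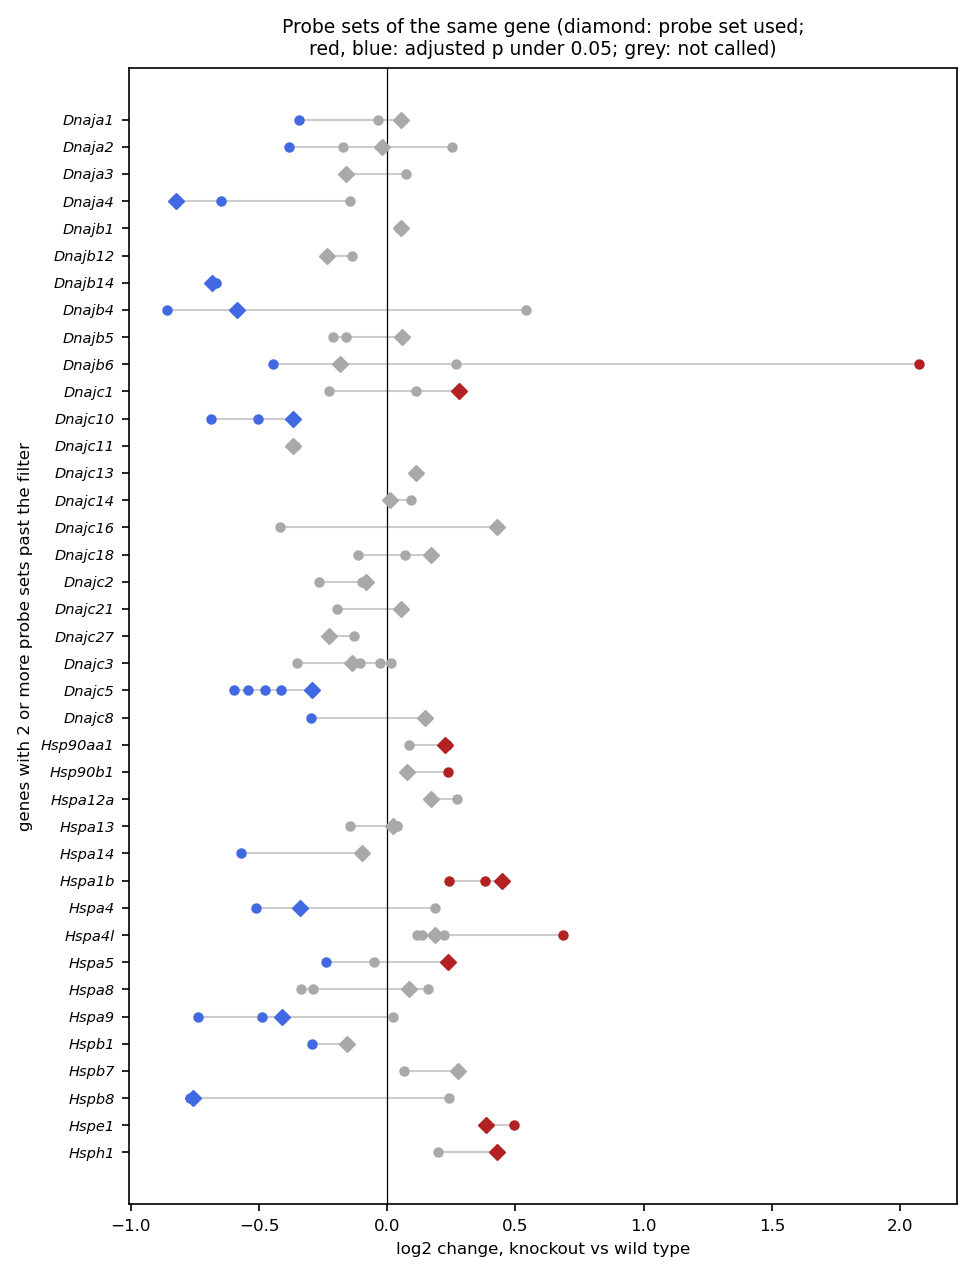
Log2 change in knockout against wild type of every probe set that passed the filter, for the 39 members with at least 2 (diamond the probe set used, red and blue called by limma, grey not called). Dnajb6 spans the widest range, from -0.44 to 2.08, and in Hspa5 the probe set used and a dimmer one are called in opposite directions.

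Other chaperone genes were taken from a list of 54, of which 48 were on the array and 46 passed. Of these 2 rose and 10 fell in knockout (median -0.09), 3 rose and 8 fell with GSH against knockout (median -0.06), and 4 rose and 15 fell with GSH against wild type (median -0.09). The shares called were 26.1%, 23.9% and 41.3%, each below the 29.1%, 35.4% and 44.7% of all probe sets. Bag2 and Bag3 release nucleotide from Hsp70. Bag2 fell in both steps, from 1527 ± 32.3 to 1002 ± 59.9 and 735 ± 99.5 (limma adjusted p = 0.00044 and 0.0022). Bag3, the partner of Hspb8, stood at 1661 ± 37.6, 1564 ± 113 and 1005 ± 92.3 and fell with GSH (-0.64, adjusted p = 0.00013). Sec63, the DnaJ protein of the ER translocon, and Tomm70a, the mitochondrial import receptor for Hsp70 and Hsp90 clients, fell in knockout (-0.43 and -0.38, adjusted p = 0.00075 and 0.0013). Grpel2, an exchange factor of mitochondrial Hsp70, fell in knockout and rose with GSH, at 1310.4 ± 15.4, 1028 ± 42.9 and 1486 ± 31.9. Cryab, the small heat shock protein of lens and muscle, stood at 6526 ± 654, 5115 ± 685 and 2051 ± 241. Its change was -0.36 in knockout (limma adjusted p = 0.013) and -1.32 with GSH against knockout (adjusted p = 5.6e-07). Serpinh1, the collagen chaperone Hsp47, stood at 12348 ± 405, 13798 ± 81.3 and 5587 ± 132. It was called higher in knockout (0.16, adjusted p = 0.045). With GSH it fell against knockout (-1.30, adjusted p = 8.7e-09), beside the fall in all 13 fibroblast markers given above. The heat shock factor gene Hsf2 was dim (75.1 ± 10.7, 84.2 ± 39.2 and 76.7 ± 36.3) and did not pass the filter, and Hsf1 was not analysed here.

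Of the 70 members, 9 did not pass the filter on low signal: Dnajb3, Dnajb7, Dnajc22, Dnajc5b, Dnajc5g, Hspa12b, Hspa1l, Hspb3 and Hspb9. Dnajb7, Hspa12b, Hspa1l and Hspb9 lay at or below the control level on all 9 arrays. Of the 61 that passed, 37 were called in at least 1 comparison, 7 in all 3 and 24 in none.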

How the data were processed

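Gene expression was measured on 9 Affymetrix arrays in 3 groups of 3. The authors deposited 1 linear signal intensity per probe set and array. The 2% trimmed mean was 500 on wild type replicate 3, the array on which it was taken, and this round value may reflect a scaling before deposit. It was not taken on the other arrays. No source used here names the summarising software. Of 45101 probe sets, 64 controls were left out, 2 values of 0 were set to 0.1, and log2 values were taken with no further normalisation. Symbols came from GEO's platform annotation, and all 70 members matched the RefSeq gene table.

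All 9 arrays were fitted in limma 3.58.1 (R 4.3.3) with terms for group and set. The moderated statistics had an intensity trend, with 5 residual degrees of freedom and 6.08 from the prior. The fit was run on simulated arrays with independent errors and planted changes, which checks its working and does not test the calls reported here. Median signals were 101.6 to 142.6, and with 3 arrays per group the precision is limited. Correlations between arrays were 0.979 to 0.990 within group and set, 0.950 to 0.968 within group across sets, and 0.902 to 0.954 across groups within set. The control level was 43.4 to 82.9 by array. The labels number the arrays of both knockout groups 2, 3 and 4. Deviations from the group means, which include the set difference, correlated between same-numbered arrays (r = 0.32, 0.29 and 0.67). Pairs crossed within set 2 gave 0.24 and 0.39, and wild type 3 with knockout 3 gave 0.42. These values do not show whether the numbers mark pairs, so the replicate block is only an alternative fit.

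The members and lists were chosen with earlier results of these data known. Named were all heat shock protein members, the 10 DnaJ genes with the smallest p in each comparison, DnaJ genes with opposed probe sets or opposed changes, and up to 4 other chaperone genes per comparison. Alternatives covered the set term, replicate block, arrays in the fit, normalisation, filter, floor, trend, calling rule, probe set and each array left out.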

Additional observations from a re-analysis of the deposited data

How the results depend on the processing

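The main counts of members called were 20 in knockout against wild type, 22 in knockout with GSH against knockout and 30 in knockout with GSH against wild type. Without the set in the model they were 10, 10 and 20. With the replicate block in place of the set, in which only the knockout groups share every number, they were 8, 13 and 17. Between the knockout groups the block ended the 9 calls given with its p in the text and changed no other call. By the rule in the design text (at least 1.5-fold in 6 of 9 pairs and unadjusted p under 0.05, without its condition on the SEM) they were 4, 5 and 9, and with an adjusted p and at least 1.5-fold 6, 7 and 10. In knockout with GSH against knockout, set 2 alone gave 13 and the second probe set of each gene 13. Leaving out 1 array gave 13 to 21, 14 to 21 and 26 to 32 calls. Of the members called, 13 of 20, 12 of 22 and 24 of 30 kept the call whichever single array was left out. Under every alternative fit that tested them, 3, 7 and 12 kept it. Some of these were not tested in every fit, such as Hspb7, tested in 18 of 20. Directions turned under quantile normalisation for Hspa8 (-0.20 in knockout and -0.00057 with GSH against wild type). With the mean of a gene's probe sets they turned for Dnaja3 (0.79), Dnajb6 (0.43) and Hspa5 (-0.019) in knockout and for Dnaja1 (-0.055), Dnajb6 (0.46), Dnajc2 (0.72) and Hspa4 (0.20) with GSH against wild type. With the second probe set they turned for Dnajc8 (-0.30) and Hspa5 (-0.053) in knockout, Dnajc1 (0.013), Dnajc14 (0.31) and Hspa14 (0.052) with GSH against knockout, and Dnaja1 (-0.0039), Dnajc14 (0.33) and Hspa1b (-0.29) with GSH against wild type. These last alternatives read other probe sets, and otherwise the cause was not tested. Signals near the control level limit the dimmest members.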
